A study of Mus musculus with 3 samples.

Results

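The genes described here are 9 genes of the melanin pathway, chosen by symbol from the 32285 genes counted in dissociated mouse cochleae. They are the melanogenic enzymes *Dct*, *Tyr* and *Tyrp1*, the melanosome proteins *Pmel*, *Mlana* and *Gpnmb*, the melanosome membrane transporters *Slc45a2* and *Oca2*, and the transcription factor *Mitf*. All 9 were found in the counted genes. The study made droplet single-cell libraries of 3′ ends from C57/B6 mice without treatment, 1 library at postnatal day 14 (P14) and 2 at postnatal day 28 (P28), each from 14 cochleae of 7 mice combined in 1 tube. According to the methods, tissue was taken mainly from the upper basal to the apical turns, part of the basal epithelium was lost with the bony wall, and the strial cells were collected with the sensory epithelium. Cell barcodes with 200 to 6000 genes and at most 30% mitochondrial UMIs (unique molecular identifiers, counted RNA molecules) were kept. These were 2005 of 2513 barcodes at P14, 9678 of 11948 in P28 replicate 1 and 14135 of 18196 in P28 replicate 2. Their median depths were 2003, 1651 and 1447 UMIs. The library pairs shared 9, 12 and 31 kept barcodes. Mice were pooled before the libraries were made, so the spread between P28 libraries is a spread between pools, and P14 against P28 was not tested because P14 is 1 library.

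Melanin is made in melanosomes, organelles that carry tyrosinase (*Tyr*) and the related enzymes encoded by *Tyrp1* and *Dct*. *Pmel* forms the fibrils on which pigment is laid down, *Mlana* takes part in melanosome maturation, *Slc45a2* and *Oca2* set the ion conditions inside the organelle, and *Mitf* is the transcription factor that directs the pigment cell programme. In the cochlea, the pigment cells are the intermediate cells of the stria vascularis, which lie between marginal and basal cells and whose potassium channel Kcnj10 (Kir4.1) is needed for the endocochlear potential.

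For 6 of the 9 genes the level in P28 replicate 2 was above those of both other libraries by more than counting error. *Dct*, which encodes dopachrome tautomerase, had 14 UMIs at P14, 298 in P28 replicate 1 and 14392 in P28 replicate 2. On the counts-per-million scale (CPM, of all UMIs of the cells taken), over all kept cells, that was 1.77, 9.61 and 432 CPM, with exact 95% Poisson intervals of 0.968 to 2.97, 8.55 to 10.8 and 425 to 439 CPM. The intervals cover counting error only. *Tyr* had 0, 24 and 616 UMIs in the same order, and the 0 at P14 allows up to 0.380 CPM (3 counts). *Slc45a2* had 0, 16 and 637 UMIs, *Mlana* had 3, 29 and 682, and *Gpnmb* had 8, 34 and 2370. For these 5 genes, *Dct* included, the interval of P28 replicate 2 lay above those of the other libraries. *Tyrp1* took another course, with 5, 167 and 213 UMIs, and its P28 levels of 5.39 and 6.39 CPM had overlapping intervals (4.60 to 6.27 and 5.56 to 7.31 CPM). *Pmel* had 11, 25 and 62 UMIs and *Oca2* had 3, 13 and 15, so that *Oca2* stayed between 0.380 and 0.450 CPM. *Mitf* had 109, 661 and 1029 UMIs, or 13.8, 21.3 and 30.9 CPM, and was the sixth gene whose intervals set P28 replicate 2 above both other libraries. A level over a whole library cannot tell more cells of a type from more RNA in each cell.

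**Figure D1:**
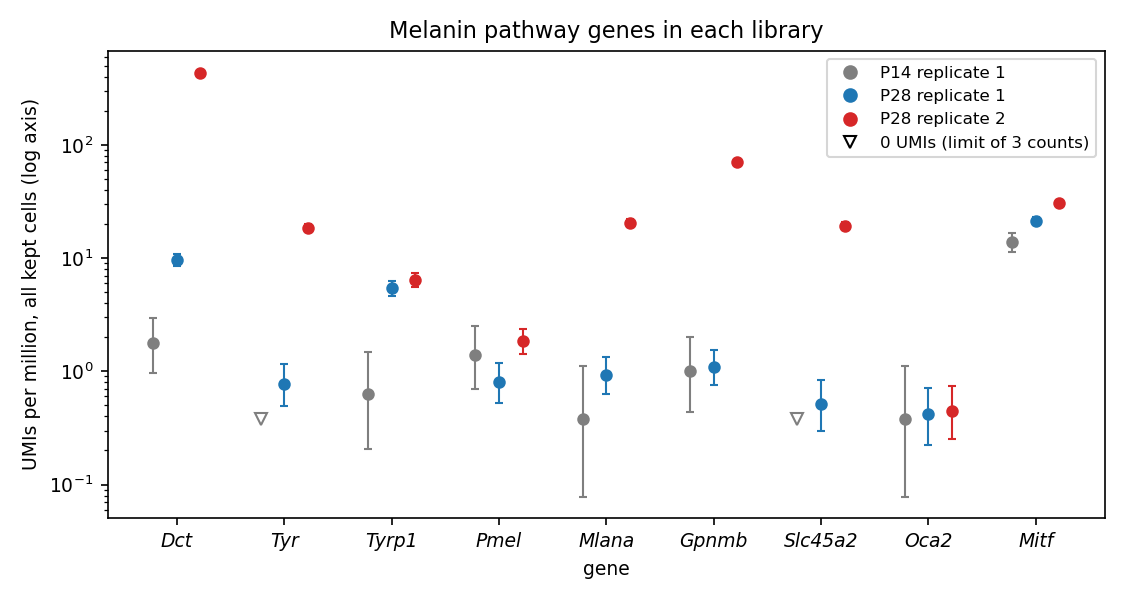
CPM (log axis) of each of the 9 genes over all kept cells of each library, with exact 95% Poisson intervals; open triangles mark 0 UMIs at the limit of 3 counts. P28 replicate 2 stands above the other libraries for Dct, Tyr, Mlana, Gpnmb and Slc45a2, whereas Tyrp1 and Oca2 overlap between the P28 libraries.

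The number of cells called intermediate cell-like was also higher in P28 replicate 2 than in P28 replicate 1. Cells were clustered with the 9 genes left out of the variable genes, and clusters were named from marker lists that hold none of them. A cluster with 7 of the 8 intermediate cell markers (*Met*, *Kcnj13*, *Pax3*, *Ednrb*, *Kcnj10*, *Gsta4* and *Nrcam*) was called intermediate cell-like. The eighth marker, *Kit*, had 4 UMIs there. This cluster held 8 cells of P28 replicate 1 and 482 of P28 replicate 2, which were clustered together after integration. The P14 cells were clustered alone, so none could enter it, and no P14 cluster got this name. A few such cells inside another P14 cluster would not be counted by this rule. *Kcnj10* reached 1080 CPM and *Met* 985 CPM in the 482 cells, while the marginal cell markers *Kcnq1* and *Kcne1* were at 1.30 and 18.2 CPM. Marginal cell-like cells numbered 2 and 92 and bone cell-like cells 11 and 87 in the P28 libraries, so the makeup of the libraries differed beyond the intermediate cells. What part the makeup had in the library levels was not tested.

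*Dct* (chr14:118012790-118052244, minus strand, GRCm38) was found mainly in the intermediate cell-like cells of both P28 libraries. In P28 replicate 2, the 482 cells held 11162 of its UMIs, or 77.6%, while they held 2.31% of all UMIs. The level was 14483 CPM (interval 14216 to 14754) against 99.3 CPM (95.9 to 103) in the other 13653 cells, a ratio of 146. The cells varied widely, from 0 to 101 *Dct* UMIs with a median of 17, and 457 of the 482 had at least 1. In P28 replicate 1, the 8 cells had 68, 45, 33, 0, 11, 0, 72 and 11 *Dct* UMIs. The 2 cells without *Dct* had no UMI of any of the 9 genes and were shallow, at 544 and 646 UMIs. Together the 8 cells held 240 of 298 *Dct* UMIs, or 80.5%, and reached 17307 CPM (15187 to 19641) against 1.87 CPM (1.42 to 2.42) in the other 9670 cells.

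*Tyr* (chr7:87424771-87493512, minus strand), the enzyme of the first step of melanin synthesis, was concentrated in the same cells. It had 512 UMIs in the 482 cells of P28 replicate 2, which was 83.1% of its UMIs in that library, at 664 CPM (608 to 724) against 3.20 CPM (2.61 to 3.87) elsewhere. The 8 cells of P28 replicate 1 held 23 of its 24 UMIs in that library, in 6 of the cells. A *Tyr* UMI was found in 233 of the 482 cells, and all but 1 of these also had *Dct*, which was in 457 of the 482.

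The promoter windows of the enzymes are shown because all 3 hold the same letters. *Mitf* is known to bind the M-box, whose core is TCATGTG, and the E-box CACGTG. Windows from 250 bases before to 50 bases after a RefSeq start (GRCm38.p6) were given for 6 of the 9 genes, with 3 windows for *Mitf*. No window was given for *Pmel*, *Mlana* or *Slc45a2*. TCATGTG, searched on both strands, was present in 3 of these 8 windows, those of *Dct*, *Tyr* and *Tyrp1*, and in 3.77% of all 32851 promoter windows. It began 151 bases before the start in *Dct*, 22 bases before it in *Tyr* and 47 bases before it in *Tyrp1*. *Dct* also held its reverse complement, 232 bases before the start. CACGTG was in none of the 8 windows and in 7.15% of all windows, which says only that these letters are not there. The 3 enzymes shared the longer run TCATGTGCT, which was looked for after the windows had been seen and was in 0.408% of all windows. The 30 bases around the match are given 5′ to 3′ on the strand of the gene, with the matched letters in capitals.
Dct, chr14:118052379-118052408: tgcacttagggTCATGTGctaacaaagagg
Tyr, chr7:87493516-87493545: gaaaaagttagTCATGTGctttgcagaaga
Tyrp1, chr4:80834155-80834184: tggggagggagTCATGTGctgcctagtagt
The 250 bases before the start of *Dct*, with both matches in capitals, and those of *Gpnmb*, which had no match although its UMIs were found in the same cells as those of *Dct*, are given for comparison.
Dct, chr14:118052247-118052496: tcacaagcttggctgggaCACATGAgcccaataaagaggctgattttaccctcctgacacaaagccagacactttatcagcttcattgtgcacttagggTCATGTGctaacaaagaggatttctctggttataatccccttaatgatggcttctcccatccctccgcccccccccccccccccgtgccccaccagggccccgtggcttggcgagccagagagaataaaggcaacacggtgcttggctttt
Gpnmb, chr6:49036268-49036517: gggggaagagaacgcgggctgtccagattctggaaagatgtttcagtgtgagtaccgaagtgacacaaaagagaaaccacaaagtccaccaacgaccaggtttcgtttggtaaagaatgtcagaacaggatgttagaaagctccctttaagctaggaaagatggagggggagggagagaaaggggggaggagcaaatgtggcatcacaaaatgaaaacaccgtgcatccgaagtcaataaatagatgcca
A match is a description of letters and not a binding site, and the windows do not separate *Dct* and *Tyr* from *Tyrp1*, whose UMIs were found in other cells.

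The melanosome proteins followed the first 2 enzymes, at different levels of detection. *Gpnmb* (chr6:49036546-49070929), a glycoprotein of melanosomes and lysosomes, had 1871 UMIs in the 482 cells, or 78.9% of its UMIs in P28 replicate 2, at 2428 CPM (2319 to 2540) against 15.3 CPM (14.0 to 16.7) elsewhere. The 8 cells of P28 replicate 1 held 19 of 34 *Gpnmb* UMIs. *Mlana* (chr19:29697824-29708634) had 453 UMIs in the 482 cells, 66.4% of its UMIs, at 588 CPM (535 to 644) against 7.04 CPM (6.16 to 8.01), and 12 of 29 UMIs in the 8 cells. *Pmel* (chr10:128704195-128720238), the fibril protein, was sparse, with 34 UMIs in 22 of the 482 cells and 3 UMIs in 2 of the 8 cells. Its level was 44.1 CPM (30.6 to 61.6) against 0.860 CPM (0.572 to 1.24) in P28 replicate 2. The gene overlaps *Cdk2* and *Dgka* on the other strand, and whether the counting used the strand is not given in the sources used here.

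Of the transporters, *Slc45a2* was detected in these cells and *Oca2* was not. *Slc45a2* (chr15:11000721-11029233) had 522 UMIs in the 482 cells, 81.9% of its UMIs, at 677 CPM (620 to 738) against 3.53 CPM (2.92 to 4.24), and 13 of its 16 UMIs in P28 replicate 1 were in the 8 cells. *Oca2* (chr7:56239760-56536518) had 0 UMIs in both sets of intermediate cell-like cells. At 770699 UMIs in the 482 cells, a count of 0 allows up to 3.89 CPM, which is above the 0.461 CPM of the other cells, so a difference was not detectable at this depth. The 31 *Oca2* UMIs of the 3 libraries were spread over other classes. No class had more than 4 of them in a library. That number was found in inner phalangeal and inner border cell-like cells of both P28 libraries and in fibrocyte-like cells of P28 replicate 2, and the 3 UMIs of P14 were in Deiters and pillar cell-like cells.

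*Mitf* (chr6:97807052-98021349) was higher in the intermediate cell-like cells but was not confined to them. Its level in P28 replicate 2 was 253 CPM (219 to 291) against 25.6 CPM (23.9 to 27.4) elsewhere, a ratio of 9.87, and 19.0% of its UMIs were in these cells. The 8 cells of P28 replicate 1 had 1 *Mitf* UMI, or 72.1 CPM with an interval of 1.83 to 402, which spans the 21.3 CPM of the other cells. *Mitf* was found in 142 of the 482 cells, and after thinning each cell to 1000 UMIs it was found in 71 of 320 cells.

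**Figure D2:**
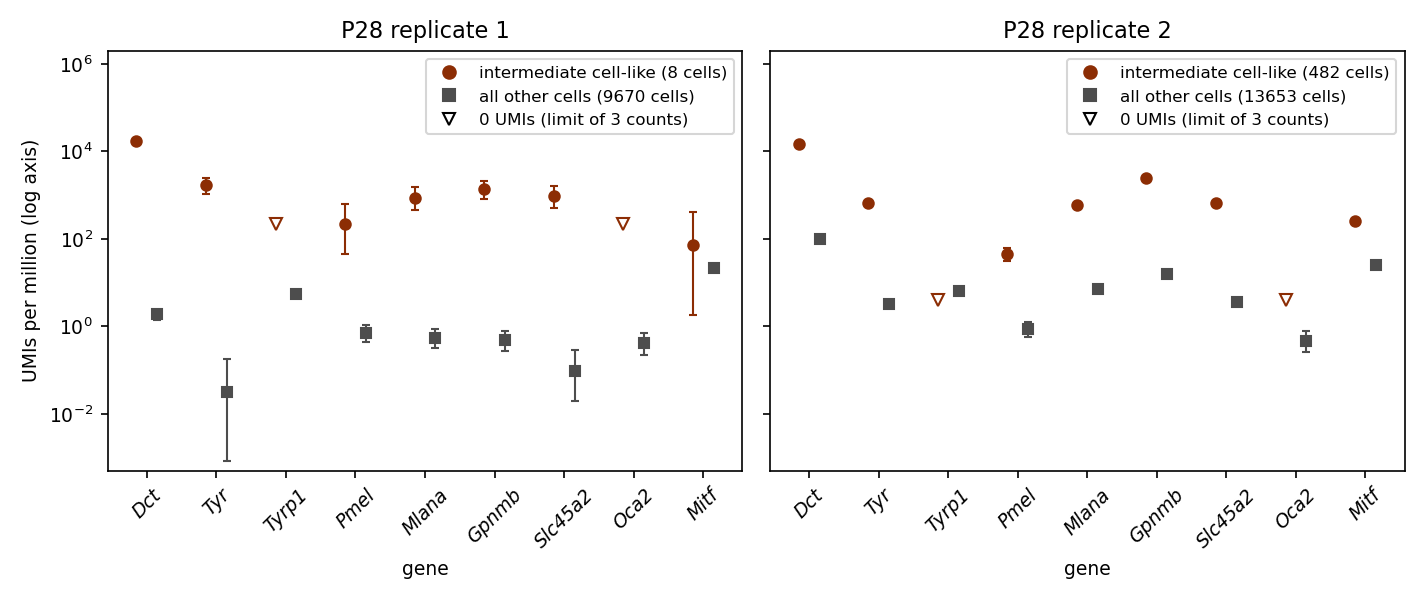
CPM (log axis) of each gene in intermediate cell-like cells (circles) and in all other kept cells (squares) of each P28 library, with exact 95% Poisson intervals; open triangles mark 0 UMIs at the limit of 3 counts. Dct, Tyr, Pmel, Mlana, Gpnmb and Slc45a2 are higher in the intermediate cell-like cells of both libraries, and Tyrp1 and Oca2 have 0 UMIs there.

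The genes were found together in single cells. In P28 replicate 2, 346 of the 482 intermediate cell-like cells, or 71.8%, had UMIs of 3 or more of the 9 genes, 164 had 5 or more, and 14 had none. Among cells with *Gpnmb*, 368 of 372 also had *Dct*, and among cells with *Slc45a2* 253 of 254 did. *Dct* was in 457 of all 482 cells, so a large overlap with it follows from its share. Over all kept barcodes, chosen without clusters, 0 at P14, 12 in P28 replicate 1 and 456 in P28 replicate 2 had 3 or more of the genes. Of the 12, 6 were intermediate cell-like and 3 were fibrocyte-like. After thinning each cell to 1000 UMIs the counts were 0, 5 and 274, so the number depends on depth.

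**Figure D3:**
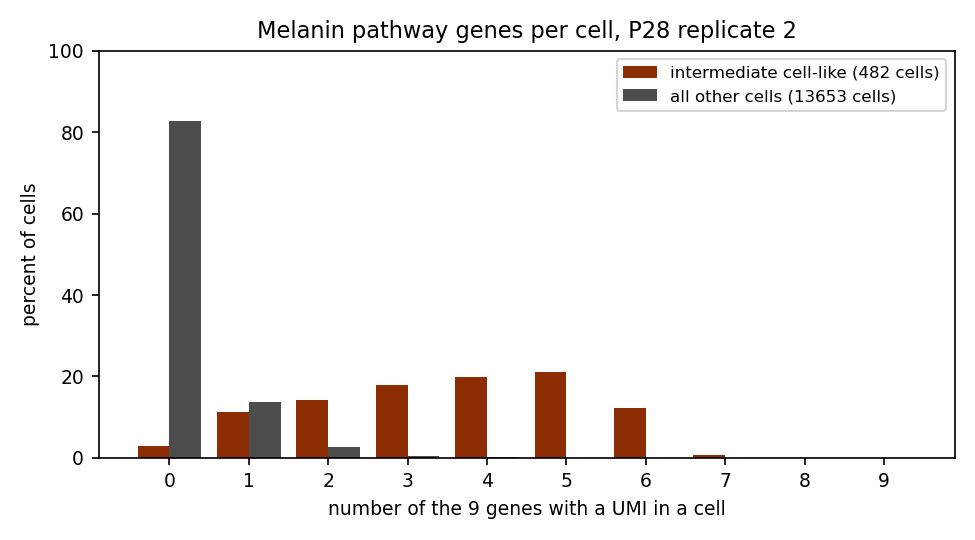
Percent of cells of P28 replicate 2 by the number of the 9 genes with at least 1 UMI in the cell, for the 482 intermediate cell-like cells and the 13653 other cells. Most intermediate cell-like cells have 3 or more of the genes, and most other cells have none.

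Only P28 replicate 2 had 10 intermediate cell-like cells or more, so the planned comparison of these cells with all others had no test. A fit with the 8 cells of P28 replicate 1 as the second sum was added after the cell numbers had been seen. It compared 2 sums with 2 by the quasi-likelihood test of edgeR, with Benjamini-Hochberg adjustment over 15336 genes, of which 6.19% were called higher and 11.2% lower. Of the 9 genes, 8 passed the filter on low counts, 7 were higher and *Tyrp1* was lower. *Tyr*, *Mlana*, *Gpnmb* and *Slc45a2* were at 0.0323, 0.549, 0.484 and 0.0968 CPM in the other cells of P28 replicate 1. They passed only with the sums of the class where they were high, and *Tyrp1* passed through the other cells alone. Entry of these genes into the test thus depended on the groups compared, and their calls are not read as support. *Dct* was higher by 7.93 on the log2 scale (SE 1.99), with an adjusted p of 9.32e-04 from edgeR. The median over the 8 genes was 7.57, against -0.20 over all genes tested. That median is set by *Mlana* (7.31) and *Gpnmb* (7.82), whose calls are not read as support. The median is therefore not read as support either. *Tyrp1*, at 0 UMIs in both class sums, was the lowest of the 8. The estimated prior degrees of freedom were infinite, and 360 of the 949 genes called higher had 0 UMIs in the 8 cells. With a library term 447 genes were higher and 631 lower, and DESeq2 called 237 and 386, with the same 7 of the 9 genes higher in both and *Tyrp1* not called (adjusted p = 0.068 with the term, and no adjusted p from DESeq2). Without a filter on low counts, *Dct* (adjusted p = 0.128), *Gpnmb* (0.0945), *Tyrp1* (0.176) and *Oca2* (0.834) were not called by edgeR. With 10 UMIs required in every sum only 3 of the 9 genes were tested, and all 3 were called higher, among 50 genes called higher in all. The 8 cells had 13867 UMIs together, so only genes at a high level there could pass. The calls under this filter were thus largely set by it and are not read as support.

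Other genes of the pigment cell pathway were read from a list of 47 genes. The list was looked up by symbol, and the symbol *Asip*, of the agouti ligand, was not among those of the counted genes. In the same added fit, 44 were tested, 17 were higher and 1 was lower, against 6.19% and 11.2% of all genes. Sparse genes such as *Trpm1*, *Mlph* and *Tfap2a* passed the filter only with the sums of the class where they were high. Of the 17, 10 were higher in both libraries, a share near that of all genes called higher (577 of 949). Melanosome transport along actin was represented by 2 of the named genes. *Mlph* (melanophilin) was at 38 UMIs in the 482 cells against 39 in all other cells of P28 replicate 2, and *Rab27a*, the GTPase that recruits it, at 71 against 90. In the 8 cells of P28 replicate 1 they had 2 and 0 UMIs. *Trpm1*, a cation channel of melanocytes, had 286 against 126 UMIs, or 371 against 3.87 CPM, and 2 UMIs in the 8 cells. *Rab38*, which delivers enzymes to melanosomes, had 29 against 71 UMIs and none in the 8 cells. The lineage regulators *Sox10* (296 against 86.6 CPM), *Tbx2* (403 UMIs, 523 CPM, against 2505 UMIs) and *Tfap2a* (3 UMIs, 3.89 against 0.522 CPM) were called higher and were higher in both libraries. In the 8 cells they had 11, 9 and 1 UMIs, so for *Tfap2a* that library rests on 1 molecule. *Bace2*, a protease that cuts Pmel, was at 217 against 41.0 CPM. *Hps3*, of the complexes that sort cargo to melanosomes, was at 126 against 27.0 CPM, and the copper pump *Atp7a*, which supplies tyrosinase, at 48.0 against 14.9 CPM. Neither had a UMI in the 8 cells. *Kitl*, the ligand of the Kit receptor, was the gene called lower, with 8 UMIs (10.4 CPM) against 32.2 CPM. By group, 4 of 5 transport genes, 4 of 7 lineage regulators, 4 of 7 channels and carriers, 1 of 3 Pmel processing genes and 4 of 19 biogenesis genes were called higher.

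Outside the intermediate cell-like cells, *Dct* UMIs were found in every class of P28 replicate 2 and at much lower levels in P28 replicate 1. Leaving out marginal cell-like cells, the 22 classes with 10 cells or more had 27.9 to 231 CPM in P28 replicate 2, with a median of 99.3 CPM. The lowest was in inner hair cell-like and the highest in endothelial cell-like cells. Red blood cell-like and endothelial cell-like cells had the highest shares of cells with a *Dct* UMI among the 22 classes, at 17.5% each. In P28 replicate 1, 10 of the 22 classes had no *Dct* UMI and the highest level was 20.4 CPM. The shares of cells with *Dct* in the 22 classes of P28 replicate 2 depend on depth and are not read as expression. What part free RNA had in them was not tested. Per 100 *Dct* UMIs of P28 replicate 2 there were 16.8 *Gpnmb* UMIs inside and 15.4 outside, 4.59 and 3.22 of *Tyr*, 4.68 and 3.56 of *Slc45a2*, 4.06 and 7.09 of *Mlana*, and 0.305 and 0.867 of *Pmel*. *Mitf* had 1.75 inside and 25.8 outside, and *Tyrp1* had 0 and 6.59. The other cells of P28 replicate 1 held only 58 *Dct* UMIs, and there the values inside and outside were 7.92 and 25.9 for *Gpnmb*, 9.58 and 1.72 for *Tyr*, 5.42 and 5.17 for *Slc45a2*, and 5 and 29.3 for *Mlana*. These outside values rest on 15 *Gpnmb*, 1 *Tyr*, 3 *Slc45a2* and 17 *Mlana* UMIs. Without marginal cell-like cells, the other cells of that library held 35 *Dct* and 0 *Tyr* UMIs.

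**Figure D4:**
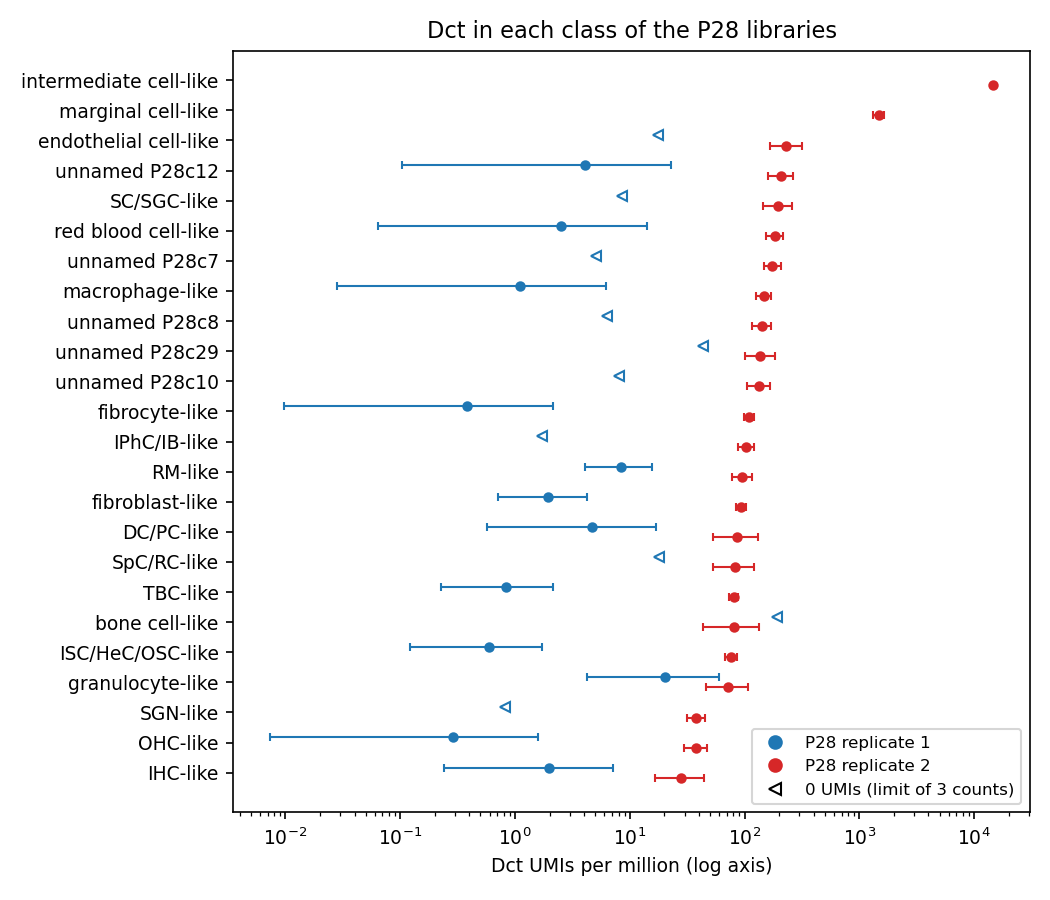
Dct CPM (log axis) in each class with 10 cells or more of the P28 libraries, with exact 95% Poisson intervals; open triangles mark 0 UMIs at the limit of 3 counts. All classes of P28 replicate 2 hold Dct, with intermediate cell-like cells at 14483 and marginal cell-like cells at 1470 CPM, and no class of P28 replicate 1 with a UMI lies above 20.4. The abbreviations stand for Schwann and satellite glial (SC/SGC), inner phalangeal and inner border (IPhC/IB), Reissner's membrane (RM), Deiters and pillar (DC/PC), spindle and root (SpC/RC), tympanic border (TBC), inner sulcus, Hensen and outer sulcus (ISC/HeC/OSC), spiral ganglion neuron (SGN), outer hair (OHC) and inner hair (IHC) cells, and numbered clusters had no name.

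Marginal cell-like cells, the neighbours of intermediate cells in the stria, were the next class. The 92 cells of P28 replicate 2 had 284 *Dct* UMIs (1470 CPM), 33 of *Gpnmb*, 17 of *Slc45a2* and 15 of *Tyr*, and 14 of the 92 had 3 or more of the 9 genes. The 2 cells of P28 replicate 1 had 23 *Dct* UMIs, and without them *Dct* in the other cells of that library fell from 1.87 to 1.13 CPM. Of the 8 intermediate cell markers, 7 had UMIs there. *Gsta4* was at 404 CPM, *Kcnj10* at 191, *Met* at 88.0, *Ednrb* at 77.6, *Nrcam* at 20.7, and *Pax3* and *Kit* at 5.18 CPM each, while *Kcnj13* had none. What part intermediate cell RNA had in these values was not tested. The doublet caller marked 0 cells in the P28 libraries and is taken not to have worked.

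*Tyrp1* (chr4:80834123-80851719) was found in other cells than *Dct* and *Tyr*. It had 0 UMIs in the 482 intermediate cell-like cells, which allows up to 3.89 CPM, against 6.55 CPM (5.70 to 7.49) in the other cells of that library. That limit is 1.68-fold below the point value of the other cells. The median over 22 classes without intermediate and marginal cell-like cells was 0 CPM, so a difference from most single classes was not detectable at this depth. At a median of 1382 UMIs per cell, the count of 0 limits the summed level and not the share of cells that express the gene. The 8 cells of P28 replicate 1 also had 0 UMIs, but their depth allows up to 216 CPM, so that library cannot show a difference. *Tyrp1* UMIs were instead found in a fibrocyte-like cluster, which was singled out after its values had been seen and has no test. Fibrocytes are the connective tissue cells of the lateral wall and spiral limbus that recycle potassium. Genes that led the cluster included *Fxyd2*, *Kcnk2*, *Dkk3* and *Kctd12*. Of the fibrocyte markers it carried *Coch*, *Car3* and *Kcnk2*, which is the fewest that a cluster name needed. The fibrocyte-like name of this cluster thus rests on the smallest basis the naming rule allowed. Its 490 cells in P28 replicate 1 held 156 of 167 *Tyrp1* UMIs, at 64.3 CPM (54.6 to 75.3), and its 866 cells in P28 replicate 2 held 200 of 213, at 57.1 CPM (49.5 to 65.6). The intervals of the libraries overlapped, unlike those of *Dct*. A second fibrocyte-like cluster, led by *Otos*, had 0 *Tyrp1* UMIs in 204 and 396 cells, which were shallower at medians of 735 and 696.5 UMIs against 3338 and 3302.5.

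The other members were sparse in this cluster in P28 replicate 1. Among 2424738 UMIs it held 156 of *Tyrp1* and 221 of *Mitf*, but 7 of *Gpnmb*, 5 of *Mlana*, 1 each of *Dct*, *Pmel* and *Oca2*, and 0 of *Tyr* and *Slc45a2*. For *Gpnmb* that was 2.89 CPM (1.16 to 5.95) against 0.484 CPM over all cells outside the intermediate cell-like class. The cluster had 356 *Dct* UMIs in P28 replicate 2, or 102 CPM, within the range of the other classes of that library. In fibrocyte-like cells of that library the intermediate cell markers *Kcnj13* and *Pax3* had 0 UMIs, *Ednrb*, *Kcnj10* and *Nrcam* were between 1.53 and 3.45 CPM, and *Kit*, *Met* and *Gsta4* were at 30.3, 66.3 and 702 CPM. *Tyrp1* was found in 88 of the 490 cells, which were deeper (median 9356.5 UMIs) than those without it (2438). Thinned to 1000 UMIs, fibrocyte-like cells of the P28 libraries had *Tyrp1* in 27 of 451 and 38 of 832 cells, and tympanic border cell-like cells in 1 of 1093 and 0 of 1550. The level fell with the limits on cells. With at most 3000 genes, 15000 UMIs and 15% mitochondrial UMIs, fibrocyte-like cells had 15.7 and 19.0 CPM in place of 59.8 and 52.1.

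*Mitf* was also found in this cluster, at 91.1 CPM (79.5 to 104) in P28 replicate 1 and 97.1 CPM (87.1 to 108) in P28 replicate 2. *Mitf* was in 41 of the 88 cells with *Tyrp1* in P28 replicate 1 and in 22.9% of those without, but the former were deeper, and as a level it stood at 93.0 and 90.2 CPM. The *Otos* cluster had *Mitf* too, at 119 CPM (74.4 to 180) and 67.6 CPM (42.8 to 101). Schwann and satellite glial cell-like cells were at 109 CPM (77.3 to 150) and 67.7 CPM (40.1 to 107) in the P28 libraries and at 44.1 CPM (17.7 to 90.8) at P14. The order of the *Mitf* levels in P28 replicate 2 was intermediate cell-like at 253 CPM, fibrocyte-like at 94.5 CPM and glial cell-like at 67.7 CPM, and the intervals of the last 2 overlapped. Tympanic border cell-like cells were at 0.625 and 6.10 CPM.

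**Figure D5:**
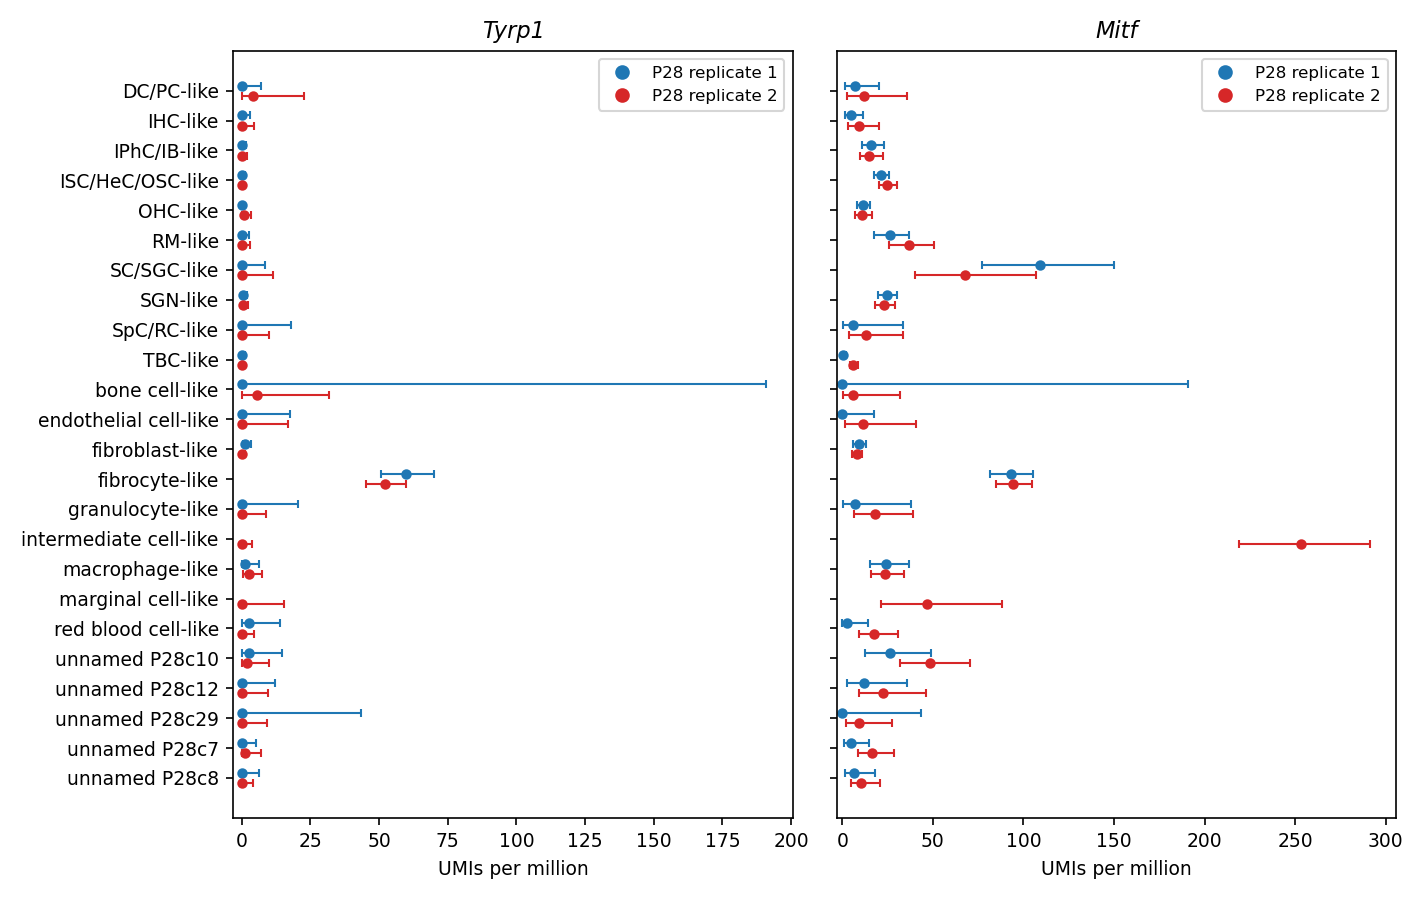
CPM of Tyrp1 and Mitf in each class with 10 cells or more of the P28 libraries, with exact 95% Poisson intervals (bars at 0 reach the limit of 3 counts). Tyrp1 stands out in fibrocyte-like cells of both libraries, and Mitf in intermediate cell-like, fibrocyte-like and Schwann and satellite glial cell-like (SC/SGC-like) cells.

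*Pmel* UMIs outside the intermediate cell-like cells were few. Schwann and satellite glial cell-like cells had 9 and 7 *Pmel* UMIs in the P28 libraries, at 25.9 and 26.3 CPM. No other class with a *Pmel* UMI there, apart from intermediate cell-like cells, was above 4.08 CPM. Small classes with 0 UMIs cannot all be placed below the glial level. Bone cell-like cells of P28 replicate 1, with 15708 UMIs in all, had an interval up to 235 CPM. The 9 UMIs were in 4 cells, 1 of which had 6, and the 7 were in 6 cells. Thinned to 1000 UMIs, 2 of 121 and 1 of 102 cells of the class had *Pmel*. At P14 the glial cell-like class had 0 *Pmel* UMIs, with an interval up to 23.2 CPM, and 8 of 11 were in inner sulcus, Hensen and outer sulcus cell-like cells.

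Because *Gpnmb* and *Mitf* are also known in macrophages, macrophage-like cells were set against the remaining cells, without the intermediate cell-like class. *Gpnmb* had 8 UMIs in 88 macrophage-like cells at P14, 1 in 435 cells of P28 replicate 1 and 35 in 607 cells of P28 replicate 2. The intervals of these levels were 9.07 to 41.4 CPM at P14, 0.0280 to 6.17 CPM in P28 replicate 1 and 20.5 to 41.0 CPM in P28 replicate 2. At P14 all 8 *Gpnmb* UMIs of the library were in 3 of these cells. In the last library the level of 29.5 CPM was within the 0 to 50.7 CPM seen over the 22 classes other than intermediate and marginal cell-like cells. In a fit of edgeR with 3 sums against 3 and a term for the library, 15.5% of 14317 genes were higher and 18.1% lower in macrophage-like cells, and 0 of the 7 members tested were called. At an unadjusted p under 0.05 there was 1, *Gpnmb*, higher in 3 of 3 libraries by 2.33 on the log2 scale (SE 0.98) with an adjusted p of 0.103 from edgeR. DESeq2 called 1 of the 7, *Gpnmb* (adjusted p = 0.0421). In the other cells *Gpnmb* had 0 UMIs at P14 and 14 in P28 replicate 1. It passed the filter on low counts only with the macrophage-like sums, so these results for *Gpnmb* are not read as support. *Mitf* had 14, 22 and 28 UMIs in macrophage-like cells, at 36.7, 24.4 and 23.6 CPM, a difference of 0.69 on the log2 scale (SE 0.33) with an adjusted p of 0.147 from edgeR. Of the 47 pathway genes, 41 were tested here, of which 10 were higher and 6 lower.

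At P14 no cluster was named intermediate cell-like, and the 14 *Dct* UMIs were in 9 cells. Inner sulcus, Hensen and outer sulcus cell-like cells, with 36.3% of all UMIs of the library, held 9 of them in 8 cells. The other 5 were in 1 Schwann and satellite glial cell-like cell. *Mitf* was highest in Reissner's membrane-like cells (8 UMIs, 72.7 CPM), and its interval overlapped that of the glial cell-like cells. All 5 *Tyrp1* UMIs were in 2 cells of a cluster called bone cell-like. When the 3 libraries were clustered together, an analysis added after the data had been seen, these 5 UMIs fell among 23 P14 cells that shared a fibrocyte-like cluster with P28 cells, at 50.4 CPM (16.4 to 118) against 63.4 and 57.0 CPM in the P28 libraries.

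The patterns across cells were last compared over 60 sums of a class and library, on log2(CPM + 10). For the mean of the 9 members each was first standardised, so that the sparse *Oca2* weighed as much as *Dct*. Only classes with at least 10 cells in a library entered. Intermediate cell-like cells therefore gave a sum from P28 replicate 2 alone, without the 8 cells of P28 replicate 1. Fibrocyte-like cells entered from the P28 libraries only. How far the correlations rest on these few sums was not tested. The sums share libraries and cells of a library share free RNA, so the correlations are descriptions. *Gpnmb* was most like *Mlana* (Pearson r = 0.956), *Trpm1* (0.944), *Hpse* (0.920), *Slc45a2* (0.915) and *Tyr* (0.906). *Tyrp1* had r between -0.10 and 0.05 with 7 of the other members and 0.34 with *Mitf*. Among 14365 genes with 100 UMIs or more, those most like the mean of the 9 members were *Gsta1* (r = 0.900), *Trpm1* (0.898), *Gsta2* (0.860), *Tspan10* (0.859), *Hpse* (0.846), *Gm10639* (0.803), *Gm3776* (0.749), *Car8* (0.738), *Lgi4* (0.712) and *1700001O22Rik* (0.710). *Hpse*, the heparanase gene, had 1201 UMIs in the 482 cells against 315 elsewhere in P28 replicate 2, and 27 in the 8 cells of P28 replicate 1. *Tspan10*, a tetraspanin, had 159 against 37. *Gsta1* and *Gsta2* are near-identical glutathione transferase genes and the counting may divide or discard reads that match both, so their separate counts are uncertain. *Mitf* was most like *Syngr1* (r = 0.728), *Agt* (0.689), *Mt1* (0.687), *Ppargc1a* (0.681) and *Cmtm5* (0.664). *Tyrp1*, added after its values had been seen, was most like *2900042K21Rik* (0.939), *Nat8f3* (0.896), *Nat8f5* (0.894), *Megf11* (0.887) and *Slc6a7* (0.867). *Nat8f3* had 154 and 208 UMIs in the *Fxyd2* cluster of the P28 libraries and 0 in both sets of intermediate cell-like cells.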

How the data were processed

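Deposited UMI counts per gene and barcode of the 3 libraries were used as raw counts. The authors made them with Cell Ranger (version 5.0.1 in the file headers, 6.0.1 in the submitters' processing notes) on mm10, without normalization, and no barcode has fewer than 500 UMIs. GENCODE M21 (GRCm38), the source of gene coordinates, holds 32235 of the identifiers; promoter sequences are from RefSeq (GRCm38.p6). Total counts of kept cells were 7903346, 31006388 and 33311342. Cells were log-normalized and clustered in Seurat 5.3.0 (R 4.3.3), P14 alone and the P28 libraries after integration, on 2000 variable genes without the 9 members, with 30 principal components at a resolution of 1. A cluster name needed at least 3 markers, and clusters were rebuilt here, so names may differ from those of the study. Scrublet scores were used only to leave out the top 5% as an alternative; no cells were removed as doublets.

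UMIs were summed per class and library. A level is CPM with an exact 95% Poisson interval, and a count of 0 is read as a limit of 3 counts. Tests on sums used edgeR 4.0.16 (quasi-likelihood, TMM, filterByExpr, Benjamini-Hochberg, threshold 0.05) with DESeq2 1.42.0 as an alternative. The SE given with edgeR was derived from the test, as the absolute log2 fold change divided by the square root of its F statistic. Only edgeR was also run on simulated sums, which held no effect of the library. Class and other sums of a library come from the same droplet run and are paired by it; their deviations correlated at 0.425, 0.410 and 0.395 for macrophage-like cells, and at 0.0838 for intermediate cell-like cells. The members, marker lists and the 47 pathway genes were chosen with earlier results of these data known. All members were described. From the pathway list, the 10 genes with the largest change among those called were named, with *Kitl* and *Asip* added. Similar genes were the 10 with the highest r to the mean of the standardised members, leaving out members and intermediate cell markers, and the 5 for a single member. Analyses added after the data had been seen number 6.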

Additional observations from a re-analysis of the deposited data

Results flagged for a closer look

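Barcodes outside the limits also held UMIs of the 9 genes, above the limit that a count of 0 allows. At P14, 508 such barcodes held 26 UMIs of the members, or 11.7 CPM. In P28 replicate 1, 2270 barcodes held 162 UMIs, or 36.2 CPM, and 4 of these barcodes had 3 or more of the genes. In P28 replicate 2, 4061 barcodes held 4876 UMIs, or 1156 CPM, and 163 barcodes had 3 or more of the genes. Of these 4876 UMIs, 4825 were in the 3578 barcodes over 30% mitochondrial UMIs, whose median depth was 710 UMIs. They included 3586 of *Dct*, so that the limit on mitochondrial UMIs left out part of the *Dct* UMIs of that library. Whether these barcodes are damaged intermediate cells was not tested.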

How the results depend on the processing

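The added test of intermediate cell-like cells called 949 genes higher and 1722 lower. It called 447 and 631 with a replicate block (library), 237 and 386 with DESeq2, 50 and 56 with 10 UMIs required in every sum (164 genes tested), and 355 and 225 without a filter, where *Dct* (adjusted p = 0.128) and *Gpnmb* (0.0945) were no longer called by edgeR. Without P28 replicate 1 or 2 a single library is left and no test is possible, and the stricter limits on cells (3000 genes, 15000 UMIs, 15% mitochondrial UMIs) leave 3 intermediate cell-like cells in P28 replicate 1, under the 5 needed. The test of macrophage-like cells called 2217 genes higher and 2597 lower. With 10 UMIs in every sum it called 1099 and 993, without the replicate block 1336 were lower, and under the stricter limits 1694 were lower. Leaving out each library in turn gave 492 to 2794 higher (492 without P28 replicate 1, 793 without P28 replicate 2) and 34 to 2924 lower (34 and 279). Of the 7 members tested there, 3 (*Tyrp1*, *Gpnmb* and *Mitf*) could be tested without the block, and none of these was called by edgeR with or without it. *Dct* reversed to -0.18 under the stricter limits, and *Slc45a2* reversed to 1.30 with DESeq2, 0.11 without P28 replicate 1 (from -0.050 to 0.11 over the libraries left out) and 0.052 with all genes allowed as variable genes, none of them called. The cause was not tested.

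The sum of the 9 genes in intermediate cell-like cells of P28 replicate 2 was 19137 CPM. It was 20847 CPM at a resolution of 2, 18029 CPM with all genes allowed as variable genes, 21625 CPM under the stricter limits, 16544 CPM with the 3 libraries clustered together, 19724 CPM without the highest doublet scores and 20128 CPM after thinning. These cells held 73.7% of the sum, and 72.4, 76.8, 71.1, 75.1 and 72.9% under the first 5 of these settings. Over all kept cells the sum was 19.4, 40.9 and 601 CPM in the 3 libraries. Without mitochondrial, ribosomal protein and haemoglobin genes it was 23.5, 54.4 and 824 CPM, and under the stricter limits 30.1 and 519 CPM in the P28 libraries. Barcodes with 3 or more of the genes numbered 4 and 156 in the P28 libraries under the stricter limits and 5 and 274 after thinning, and those with 2 or more numbered 4, 59 and 899. P28 replicate 2 stayed above the others in each of these. Depth limits *Oca2* and *Pmel* throughout, and 8 cells limit P28 replicate 1.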
